A study of Mus musculus with 6 samples.

Results

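The subunits of oxidative phosphorylation were followed in messenger RNA of the medial ganglionic eminence (MGE) of mouse embryos. Genes were taken by name from the deposited table: nuclear genes named Nduf for complex I, Sdh for complex II, Uqcr for complex III, Cox4 to Cox8 for complex IV and Atp5 for complex V, and the mitochondrially encoded mt-Nd, mt-Cytb, mt-Co and mt-Atp genes. The rule found 93 of the 17794 genes in the table, 80 of them nuclear and 13 mitochondrial, and left out 1 pseudogene name. Of the nuclear genes 37 belonged to complex I, 4 to complex II, 8 to complex III, 14 to complex IV and 17 to complex V, and of the mitochondrial genes 7 belonged to complex I, 1 to complex III, 3 to complex IV and 2 to complex V. All 93 passed the filter on low counts, and 92 had at least 10 reads in every library.

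Complexes I to IV pass electrons from NADH and succinate to oxygen in the inner mitochondrial membrane, complexes I, III and IV pump protons as they do so, and complex V, the ATP synthase, uses the returning protons to make ATP. Complex II is encoded wholly in the nucleus, whereas the other complexes join nuclear subunits, imported as proteins, to a hydrophobic core made inside the organelle from mitochondrial DNA. The MGE is a ventral forebrain zone that produces cortical interneurons, and its dividing progenitors also draw on glycolysis. The gene names Ndufa4 and Cox7a2l are historical, since the first protein is found with complex IV and the second joins complexes III and IV into supercomplexes, and Atp5s and Atp5sl encode factors that are not counted as ATP synthase subunits today. All counts and medians below keep each gene, Ndufa4l2 included, under the complex of its name.

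Double-mutant (dmut) embryos were Rac1 fl/fl; Rac3-/-; Nkx2.1Tg(Cre); R26R-YFP+/-, and control embryos were Rac1+/+; Rac3+/+; Nkx2.1Tg(Cre); R26R-YFP+/-, all at E13.5. Both groups thus carried the Cre transgene and the YFP reporter allele, the Rac3-/- allele was present in every dmut cell, and Rac1 could be lost only where the Nkx2-1-driven Cre was active within a whole dissected MGE. Each group had 3 libraries, each from the MGEs of 3 pooled embryos, and p-values measure the spread between these pools.

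The libraries held from 26766556 to 34612095 total gene reads. As a check of the labels, Rac3 had 16, 0 and 0 reads in dmut, against 728, 647 and 532 in control, and Rac1 had 6101, 7442 and 6586 reads in dmut, against 10012, 10228 and 9043 in control (log2 fold change -0.13, edgeR adjusted p = 0.525). Values are given in the order of replicates 1, 2 and 3 throughout. All 13 listed MGE and ventral forebrain markers were measured in both groups, with 2211 to 2726 summed CPM in dmut and 2012 to 2313 in control. Their median log2 fold change, dmut over control, was 0.39, and 0.29 after the correction for exon length and GC content described later. Of the 13, 9 had positive folds, 8 had an unadjusted p below 0.05 in edgeR (21.3% of all genes), and none was called by edgeR. DESeq2 called 5 of them higher (5.63% of all genes) and 1 lower (4.39%). CPM are TMM-scaled counts relative to library size. Summed CPM of other cell types overlapped between the groups for cortical excitatory neuron genes (21.1 to 113 in dmut, 36.7 to 70.6 in control), endothelial and pericyte genes (233 to 288 and 235 to 259), erythroid genes (9799 to 35608 and 11901 to 20591) and muscle genes (1.22 to 5.19 and 3.90 to 5.32). They did not overlap for microglia and macrophage genes (501 to 1971 in dmut, 367 to 432 in control) or for mesenchyme and meninges genes (32.7 to 44.0 in dmut, 47.2 to 70.0 in control). Median log2 fold changes were 0.05 (cortical excitatory), 0.17 (endothelial and pericyte), -0.28 (erythroid), -1.07 (muscle), 0.47 (microglia and macrophage) and -0.93 (mesenchyme and meninges). The part of these cells in the subunit values was not tested.

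Transcripts of nuclear subunits took 0.947, 0.763 and 0.890% of all reads in dmut, against 0.752, 0.668 and 0.724% in control. Every dmut library lay above every control library. Mitochondrially encoded subunits took 3.95, 2.76 and 2.40% in dmut, against 3.14, 2.54 and 2.03% in control, and here the groups overlapped. In such bulk samples, cells with more of these transcripts and more cells of a type that is rich in them cannot be told apart.

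Across the table, edgeR's quasi-likelihood test called 77 of 15960 genes at a Benjamini-Hochberg adjusted p of 0.05 (0.482%), 26 of them higher in dmut (0.163%) and 51 lower (0.32%). With library size alone in place of TMM factors these were 52 and 728, and the median fold of all genes moved to -0.23. Of the subunits, 1 rose and none fell. At an unadjusted p below 0.05 stood 69 of the 93 subunits, against 21.3% of all genes. At an adjusted p of 0.1, 31 of 93 stood out (6.67% of all genes), 30 of them higher (3.38%) and 1 lower (3.29%). DESeq2 called 51 subunits higher (5.63% of all genes) and 3 lower (4.39%). The authors' deposited table gave 155 genes an adjusted p of at most 0.05 (0.871%), and they included 11 subunits that were higher in dmut and 1, mt-Nd4l, that was lower.

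The log2 fold change, dmut over control, was positive in 75 of 80 nuclear subunits and in 12 of 13 mitochondrial ones, against 47.3% of all genes tested. Its median was 0.60 over nuclear subunits, 0.42 over mitochondrial ones and -0.02 over all genes. In 55 nuclear subunits and 1 mitochondrial subunit every dmut library lay above every control library, as in 13.6% of all genes. The opposite held in Atp5g1, Atp5g2 and mt-Nd4l, and in 14.9% of all genes. Nuclear medians with each library left out in turn ran from 0.43 to 0.71.

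The number of subunits called moved with the setting. With library size alone 3 subunits were called (4.89% of all genes), over genes averaging 50 reads or more 5 (1.02%), by limma-voom 4 (0.796%) and on unique reads 2 (0.588%). The count was 1 with DESeq2 size factors (0.439%), with no filter on low counts (0.466%), without mitochondrial and haemoglobin genes in the library sizes (0.482%) and with copies pooled (0.414%). On log2(RPKM + 1) it was 0 (0.307%), with 38 subunits and 24.3% of all genes at an unadjusted p below 0.05. With the date as a block it was also 0 (0.0%), with 54 subunits and 12.7% of all genes at that p. With the replicate number as a block it was 13 (1.42%), and without dmut replicate 2 it was 28, all higher (3.54%). Without any other single library it was 0, against 0.133% of all genes without dmut replicate 1, 0.0725% without dmut replicate 3, 0.0123% without control replicate 1 or 2 and 0.0245% without control replicate 3.

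**Figure D1:**
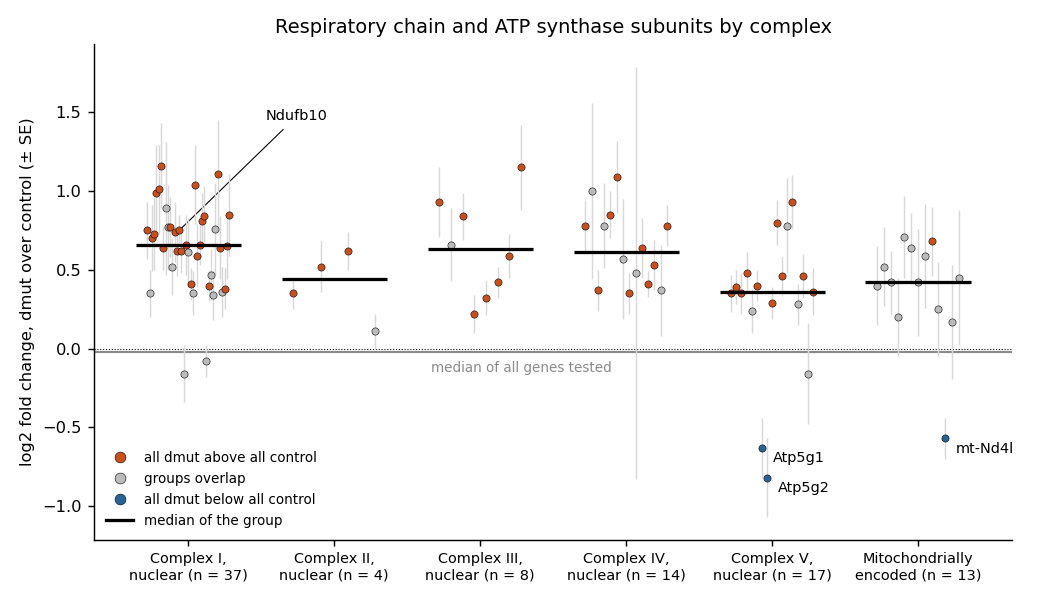
Each point is the log2 fold change (dmut over control, with its standard error) of 1 subunit gene, grouped by complex, and black bars are the medians of each group. Medians run from 0.36 in nuclear complex V to 0.66 in nuclear complex I, and the points below -0.5 are Atp5g1, Atp5g2 and mt-Nd4l.

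Complex I takes electrons from NADH. Ndufb10, an accessory subunit of its membrane arm, rose in dmut and was the subunit called. Its level was 85.8, 73.5 and 81.3 CPM in dmut, against 51.5, 45.3 and 46.1 CPM in control. The groups stood clear of each other, with means of 80.2 ± 6.26 CPM in dmut and 47.6 ± 3.34 CPM in control (SD, n = 3 each). The log2 fold change was 0.75 ± 0.10 (SE, edgeR adjusted p = 0.0413), close to the threshold. Over 19 alternatives it stayed positive, from 0.40 to 0.82, and the adjusted p ran from 1.37e-08 to 0.364, with 11 of them below 0.05. It was not called with the length and GC trend removed (0.40, adjusted p = 0.0906), on log2(RPKM + 1) (0.55, 0.0767) or with the date as a block (0.82, 0.364), nor without dmut replicate 1 (0.70, 0.0783), dmut replicate 3 (0.74, 0.0824) or control replicate 1, 2 or 3 (0.81, 0.72 and 0.73, adjusted p from 0.198 to 0.24). The gene lies at chr17:24722060-24724478 on the minus strand of GRCm38, and at most 3 of its reads in any library matched several places.

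Of the other nuclear complex I genes none passed, and 14 of the 37, Ndufb10 among them, were higher at an adjusted p of 0.1 (3.38% of all genes). In 25 of 37 the dmut libraries all lay above the control libraries (13.6% of all genes), and in none below (14.9%). Ndufb9, another membrane arm accessory subunit, had 117, 90.3 and 99.5 CPM in dmut, against 71.8, 56.9 and 65.9 CPM in control (log2 fold change 0.66 ± 0.13, adjusted p = 0.0751). Ndufa4, the most abundant Nduf transcript per length, had 99.1, 72.9 and 80.0 CPM in dmut, against 49.4, 50.7 and 61.4 CPM in control (0.64 ± 0.14, 0.0827). In both, the lowest dmut library was replicate 2 and it still lay above all controls.

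The 30 accessory subunits of complex I had a median log2 fold change of 0.74, and the 7 nuclear core subunits, which carry the flavin and iron-sulfur centres, a median of 0.40. Core genes were also longer, with a median summed exon length of 2178 bp against 1234 bp. Ndufa3, a small accessory subunit, had the largest fold of all subunits. It had 28.2, 15.4 and 16.8 CPM in dmut, against 11.5, 7.83 and 7.77 CPM in control (1.16 ± 0.27, adjusted p = 0.0872), and was chosen after its values were seen, as were Ndufs1, Uqcrq, Atp5b, Atp5d, Atp5e and the gene copies described later. Dmut replicate 1 stood well above the other dmut libraries for this gene. Ndufs1, the largest iron-sulfur core subunit, had 83.0, 80.6 and 76.7 CPM in dmut, against 76.6, 90.5 and 87.3 CPM in control (-0.08 ± 0.10, 0.690, and 0.02 with the length and GC trend removed), and the accessory Ndufb2 had 45.1, 34.5 and 42.0 CPM in dmut, against 57.2, 39.9 and 39.2 CPM in control (-0.16 ± 0.18, 0.665). Both groups overlapped in these 2 genes.

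Complex II oxidises succinate and links the chain to the tricarboxylic acid cycle. None of its 4 genes passed in edgeR, 3 had an unadjusted p below 0.05 (21.3% of all genes), and DESeq2 called those 3 higher (5.63%). Sdhc, a membrane anchor, had 121, 114 and 94.7 CPM in dmut, against 77.2, 63.9 and 73.5 CPM in control (0.62 ± 0.12, adjusted p = 0.0751). Sdha, the catalytic flavoprotein, had 223, 219 and 200 CPM in dmut, against 159, 162 and 183 CPM in control (0.35 ± 0.10, 0.106), without overlap in either gene. Sdhb, the iron-sulfur subunit and the most abundant of the 4 per length, had 181, 120 and 152 CPM in dmut, against 107, 92.5 and 117 CPM in control (0.52 ± 0.16, 0.134). The other anchor, Sdhd, overlapped, with 60.0, 72.8 and 75.0 CPM in dmut and 67.2, 60.6 and 65.3 CPM in control (0.11 ± 0.11, 0.648).

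Complex III passes electrons to cytochrome c. All 8 nuclear genes had positive folds, and in 7 every dmut library lay above every control library (13.6% of all genes). None passed in edgeR, while 7 had an unadjusted p below 0.05 (21.3% of all genes) and DESeq2 called 6 higher (5.63%). Uqcrb, a small subunit at the quinone site, had 80.4, 56.7 and 58.4 CPM in dmut, against 34.5, 35.3 and 39.2 CPM in control (0.84 ± 0.15, adjusted p = 0.0671). Uqcrq, another small subunit, had 67.8, 36.3 and 35.2 CPM in dmut, against 20.5, 18.0 and 24.5 CPM in control (1.15 ± 0.27, 0.0872). Dmut replicate 1 was the highest library in both. Uqcrfs1, the Rieske iron-sulfur protein, had 110, 100 and 104 CPM in dmut, against 85.7, 72.2 and 77.3 CPM in control (0.42 ± 0.10, 0.0862). The core protein Uqcrc1, the most abundant Uqcr transcript per length, had 193, 174 and 177 CPM in dmut, against 166, 131 and 170 CPM in control (0.22 ± 0.12, 0.354), the lowest fold of the complex.

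Complex IV reduces oxygen. All 14 nuclear genes had positive folds and none passed in edgeR. Of the 14, 10 had an unadjusted p below 0.05 (21.3% of all genes), and DESeq2 called 8 higher (5.63%). Cox8a, a small structural subunit, had 129, 98.9 and 112 CPM in dmut, against 71.2, 67.0 and 59.4 CPM in control (0.78 ± 0.13, adjusted p = 0.0576). Cox6a1, the most abundant Cox transcript per length, had 230, 162 and 165 CPM in dmut, against 108, 98.6 and 104 CPM in control (0.85 ± 0.15, 0.0653). Cox6b1, which faces the intermembrane space, had 121, 62.0 and 87.9 CPM in dmut, against 44.9, 38.6 and 43.7 CPM in control (1.09 ± 0.23, 0.0773). None of these groups overlapped, and dmut replicate 1 was the highest library in each. Cox4i1, a regulatory subunit that binds ATP, had 271, 183 and 224 CPM in dmut, against 141, 117 and 138 CPM in control (0.78 ± 0.16, 0.0751). Cox7a2l had closely spaced libraries, with 182, 178 and 165 CPM in dmut and 131, 129 and 134 CPM in control (0.41 ± 0.08, 0.0751). Cox7a2 had 114, 67.2 and 89.2 CPM in dmut, against 57.1, 52.6 and 63.5 CPM in control (0.64 ± 0.19, 0.117), and Cox7b had 78.8, 54.5 and 60.9 CPM in dmut, against 51.9, 40.8 and 42.0 CPM in control (0.53 ± 0.16, 0.128). The lowest fold was that of Cox6c, with 64.2, 57.8 and 60.6 CPM in dmut and 56.7, 42.4 and 44.1 CPM in control (0.35 ± 0.13, 0.182).

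Several complex IV positions can be filled by alternative isoforms. Measured per length in RPKM (reads per kilobase of exon, scaled to library depth), the isoforms known from lung, testis or muscle were minor in both groups. Cox4i2, a lung isoform known to respond to oxygen, made up 1.49 ± 1.06% of the COX4 transcripts in dmut and 1.22 ± 0.213% in control (SD, n = 3 each). Cox6b2, the testis isoform, made up 2.18 ± 0.642% of COX6B in dmut and 3.24 ± 0.315% in control. Cox7a1, the muscle and heart isoform, made up 0.693 ± 0.401% of the COX7A pair in dmut and 0.608 ± 0.527% in control, and was listed at 0 in control replicate 2. Ndufa4l2, known from hypoxic cells, made up 1.32 ± 0.557% of the NDUFA4 pair in dmut and 1.24 ± 0.584% in control. Except for Cox6b2, whose share was 2.74, 2.31 and 1.48% in dmut and 3.55, 3.27 and 2.92% in control, the ranges of the 2 groups overlapped. The Cox6b2 share was lower in all 3 dmut libraries, and the shares were not tested. Cox6a2, Cox7b2, Cox8b and Cox8c were not among the gene names that the rule found.

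Complex V joins a catalytic F1 head to a membrane ring of c subunits. Of its 17 nuclear genes none passed in edgeR, and 14 had an unadjusted p below 0.05 (21.3% of all genes). DESeq2 called 9 higher (5.63% of all genes) and 2 lower (4.39%). The 5 genes of the F1 head had positive folds with a median of 0.35, from 0.24 in Atp5e to 0.48 in Atp5d. Among them the catalytic beta subunit Atp5b had 1280, 1186 and 1187 CPM in dmut, against 890, 876 and 1025 CPM in control (0.39 ± 0.11, adjusted p = 0.112). Atp5h, the d subunit of the stalk, had 280, 208 and 273 CPM in dmut, against 155, 133 and 150 CPM in control (0.80 ± 0.14, 0.0614). Atp5k, the e subunit, which takes part in dimer formation, had 89.7, 58.4 and 67.7 CPM in dmut, against 41.3, 35.7 and 36.2 CPM in control (0.93 ± 0.17, 0.0653). Neither overlapped. Atp5l, the g subunit and the most abundant nuclear subunit transcript per length, did overlap, with 124, 157 and 174 CPM in dmut and 130, 118 and 127 CPM in control (0.28 ± 0.13, 0.285). Only 52.1% of Atp5l reads matched a single place, and on unique reads its fold was 0.07 (edgeR adjusted p = 0.933). Its rank per length rests on shared reads and on the length behind the RPKM.

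The c subunit of the ring is encoded by 3 genes, Atp5g1, Atp5g2 and Atp5g3, whose mature protein is the same. Atp5g3 had 190, 220 and 224 CPM in dmut, against 176, 174 and 170 CPM in control (0.29 ± 0.10, adjusted p = 0.150). Atp5g1 had 33.4, 31.0 and 46.4 CPM in dmut, against 68.7, 49.9 and 52.5 CPM in control (-0.63 ± 0.19, 0.124), and Atp5g2 had 14.8, 15.3 and 26.9 CPM in dmut, against 38.3, 27.2 and 35.3 CPM in control (-0.82 ± 0.25, 0.127). In both, every dmut library lay below every control library. Per length, Atp5g3 made up 67.7 ± 6.08% of the c subunit transcripts in dmut and 50.3 ± 4.46% in control, and Atp5g2 27.2 ± 5.66% in dmut and 42.5 ± 4.21% in control (SD, n = 3 each). These shares leave out reads listed under the gene copies described next. A change in the balance of the 3 genes cannot be read from them.

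The low values of Atp5g1 and Atp5g2 went with reads listed under processed pseudogenes of near-identical sequence. Only 42.7% of Atp5g1 reads and 10.4% of Atp5g2 reads matched a single place. Gm10039, a pseudogene at chr11:100361716-100362126 whose annotated 411 bases differ from the Atp5g1 transcript at 1 base, had 1443, 1435 and 1133 reads in dmut, against 15, 40 and 14 in control. Of these, 213, 183 and 169 were unique in dmut, against 0, 1 and 0 in control. Its level was 49.4 ± 5.34 CPM in dmut and 0.632 ± 0.379 CPM in control (6.27 ± 0.34, edgeR adjusted p = 0.00241). Gm10039 lies on the chromosome that also holds Atp5g1 (chr11:96068852-96075670) and the disrupted Rac3 (chr11:120721470-120723969), and whether its difference is linked to that allele was not tested. Gm10231, at chr17:5816200-5816640, matches an Atp5g2 transcript over 441 bases with no mismatch, and had 4416, 3653 and 3469 reads in dmut, against 2965, 2347 and 2255 in control.

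The stretch of Atp5g1 that holds the difference from Gm10039 is printed from the GENCODE transcripts, 5′ to 3′, with the differing base in capitals, because reads that miss this base can be placed in either gene.
Atp5g1: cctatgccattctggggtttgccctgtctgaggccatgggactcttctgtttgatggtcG
Gm10039: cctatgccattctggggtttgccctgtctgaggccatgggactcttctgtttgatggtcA

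With the reads of each gene and its copies added together, the direction turned for both. Atp5g1 with Gm10039 came to 85.8, 83.7 and 89.7 CPM in dmut, against 69.1, 51.0 and 52.9 CPM in control, with a log2 fold change of 0.58 ± 0.13 (adjusted p = 0.0827). Atp5g2 with Gm10231 and the minor copy Gm10175 came to 176, 150 and 160 CPM in dmut, against 120, 90.2 and 103 CPM in control (0.63 ± 0.13, 0.0739). In these sums every dmut library lay above every control library. Both folds were above the 0.29 of Atp5g3, so the higher Atp5g3 share in dmut did not hold with copies added. On unique reads alone Atp5g1 stood at 0.24 (adjusted p = 0.570) and Atp5g2 at -1.37 (0.0713), so the direction of Atp5g1 depends on how shared reads are placed. Atp5g2 had 33, 33 and 53 unique reads in dmut, against 169, 128 and 118 in control. Its direction turned only with the reads of its copies added.

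**Figure D2:**
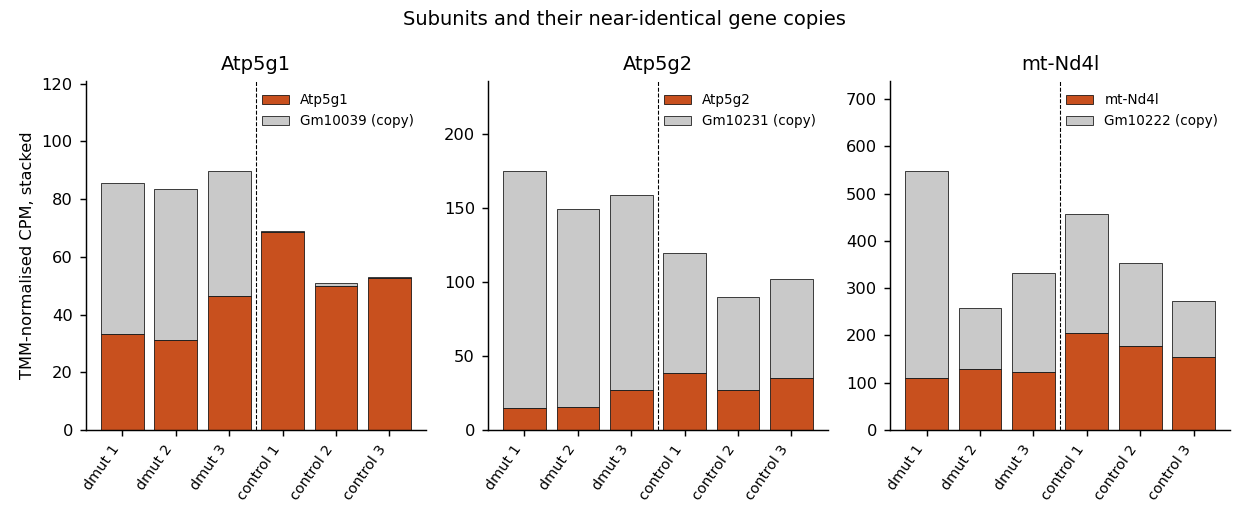
Stacked bars show TMM-normalised CPM of Atp5g1, Atp5g2 and mt-Nd4l (coloured) and of their near-identical copies (grey) in each library, dmut left of the broken line and control right of it. For Atp5g1 the grey part is 43.2 to 52.6 CPM in dmut and 0.411 to 1.07 CPM in control, and the minor copy Gm10175 is not drawn.

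Mitochondrial DNA yields long transcripts from which the messenger RNAs are cut, so neighbouring genes share their synthesis. None of the 13 mitochondrial subunits passed in edgeR, and 4 had an unadjusted p below 0.05 (21.3% of all genes). DESeq2 called mt-Nd3, mt-Cytb and mt-Co3 higher (5.63% of all genes) and mt-Nd4l lower (4.39%). The median deviation from the control mean was 0.93, 0.14 and 0.03 on the log2 scale in dmut, against 0.29, 0.03 and -0.31 in control. Dmut replicate 1 stood above all other libraries and the other dmut libraries lay within the control range. Without it the median fold was 0.13 and 7 of 13 folds were positive, against 0.42 and 12 of 13 with it, so the size of the median and the number of positive folds rest on that library. Its erythroid marker sum, 35608 CPM, was also the highest of the 6 libraries, and the part of blood cells in this was not tested.

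Per length, mt-Co3, a core subunit of complex IV, was the most abundant, at 7592 RPKM in dmut and 5391 RPKM in control, and mt-Nd6, the subunit on the light strand, had 476 and 408 RPKM in these groups. mt-Co3 had 9070, 5778 and 4542 CPM in dmut, against 4553, 3949 and 3323 CPM in control (0.71 ± 0.26, adjusted p = 0.171). mt-Cytb, the complex III core, had 4136, 3673 and 2462 CPM in dmut, against 2652, 2143 and 1799 CPM in control (0.64 ± 0.22, 0.162). The lowest dmut library fell inside the control range in both. mt-Nd3, a complex I core subunit, was the 1 mitochondrial gene whose dmut libraries all lay above the controls, with 702, 505 and 490 CPM in dmut and 442, 355 and 261 CPM in control (0.68 ± 0.22, 0.143). The remaining complex I genes mt-Nd1 (0.42), mt-Nd2 (0.59), mt-Nd4 (0.25), mt-Nd5 (0.17) and mt-Nd6 (0.45) overlapped between the groups, as did the complex IV genes mt-Co1 (0.42) and mt-Co2 (0.20).

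The ATP synthase pair mt-Atp8 and mt-Atp6 is cut out as one messenger, and their reading frames overlap by 43 bases (chrM:7927-7969). The overlap is printed below in capitals after the 10 bases before it, because these bases belong to both genes. How reads over them were counted is not known.
mt-Atp8 and mt-Atp6 overlap: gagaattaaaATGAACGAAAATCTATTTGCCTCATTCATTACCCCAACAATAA
mt-Atp8 had 1397, 920 and 882 CPM in dmut, against 938, 761 and 529 CPM in control (0.52 ± 0.25, adjusted p = 0.292). mt-Atp6 had 4280, 3873 and 2929 CPM in dmut, against 3669, 2848 and 1892 CPM in control (0.40 ± 0.25, 0.424). Both pairs of groups overlapped.

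mt-Nd4l, a small hydrophobic complex I core subunit at chrM:9877-10173, was the 1 mitochondrial gene with a negative fold. It had 110, 128 and 123 CPM in dmut, against 206, 177 and 155 CPM in control (-0.57 ± 0.13, adjusted p = 0.0807), and every dmut library lay below every control library. Only 0.0824% of its reads matched a single place. The nuclear pseudogene Gm10222 at chr1:24612407-24612700 repeats 294 bases of it with no mismatch, and its first 60 bases, identical in both, are printed here to show that no read from them can be assigned.
mt-Nd4l: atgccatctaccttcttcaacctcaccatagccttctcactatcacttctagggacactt
Gm10222 had 437, 130 and 209 CPM in dmut, against 251, 176 and 118 CPM in control. The sum of both was 548, 258 and 332 CPM in dmut, against 458, 353 and 273 CPM in control (0.07 ± 0.30, 0.927), and the groups overlapped. The value listed for mt-Nd4l alone is therefore uncertain, in the authors' deposited table as well. Other annotated genes also hold 50-base words of mt-Co1 (51.14% of its words), mt-Nd4 (62.23%), mt-Nd3 (97.99%), mt-Atp6 (99.53%), mt-Co3 (99.86%) and mt-Co2 (100%). Of the reads of these genes 91.9% (mt-Co2) to 100% (mt-Co3) were listed as unique, and the effect of such copies was not tested.

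**Figure D3:**
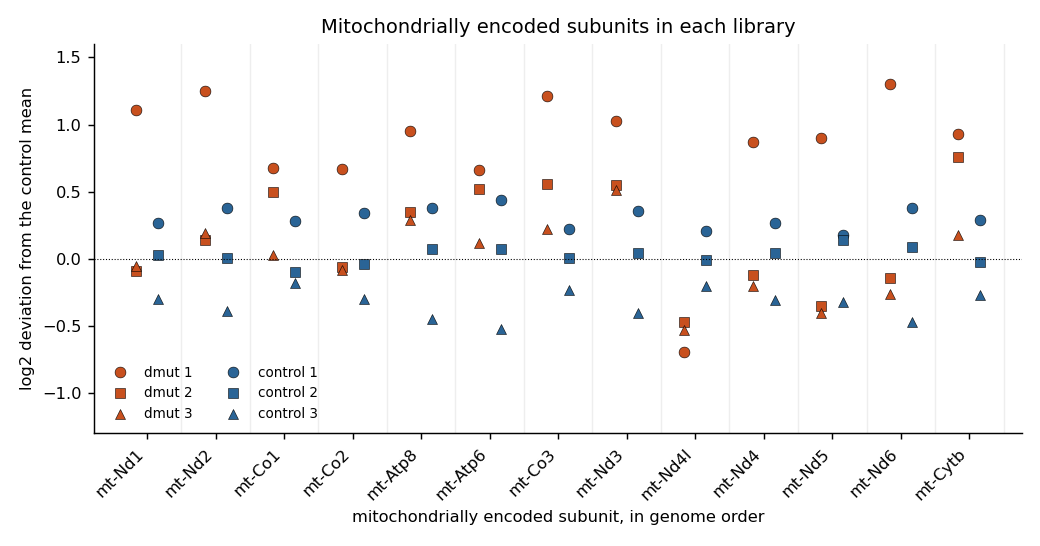
For each mitochondrially encoded subunit, in genome order, symbols give the log2 deviation from the control mean in the 3 dmut libraries (left, orange) and the 3 control libraries (right, blue). Dmut replicate 1 is the highest library for every gene but mt-Nd4l, while replicates 2 and 3 lie below 0 for mt-Nd1, mt-Co2, mt-Nd4, mt-Nd4l, mt-Nd5 and mt-Nd6.

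Nuclear subunits also differed between dmut libraries, but less. Their median deviation was 0.84, 0.33 and 0.54 in dmut, against 0.10, -0.13 and 0.03 in control, so that the lowest dmut library lay above the highest control library. Dmut replicate 1 had 75 of 80 nuclear subunits above the control mean, dmut replicate 2 had 68 and dmut replicate 3 had 74, against 68, 6 and 50 in the control libraries. Control replicate 1 thus had as many as dmut replicate 2, at smaller deviations in the median. Without dmut replicate 1 the nuclear median was 0.43, with 75 of 80 positive. Dates in the titles allow 2 comparisons within a date. On 29 March the median log2 difference was 0.72 over nuclear subunits (2 dmut libraries, 1 control), 0.52 over mitochondrial ones and -0.03 over all genes. On 4 May (1 library each) it was 0.50, 0.25 and -0.02.

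The balance of the 2 genomes was read within each library as the nuclear median minus the mitochondrial median. It was -0.09, 0.19 and 0.51 in dmut, against -0.19, -0.16 and 0.34 in control. The groups overlapped, and the difference of their means was 0.21, or 0.05 to 0.42 with a library left out and 0.08 with the length and GC trend removed. Within a date it was 0.21 on 29 March and 0.17 on 4 May, and with the date as a block 0.19. Between libraries of the same replicate number it was 0.10, 0.35 and 0.17. Replicate 3 had the highest value in both groups, and the difference was not tested.

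**Figure D4:**
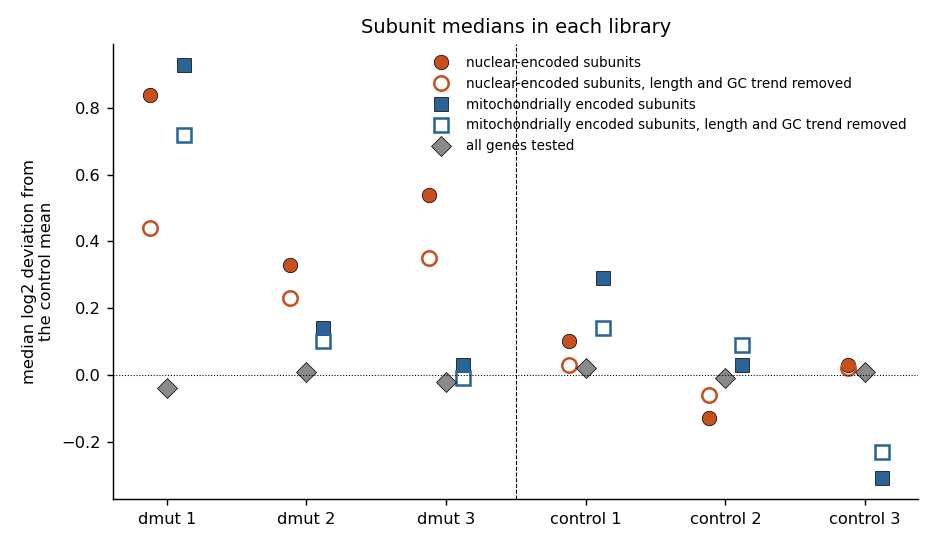
Median log2 deviation from the control mean in each library, for 80 nuclear-encoded and 13 mitochondrially encoded subunits and for all genes tested, dmut left of the broken line. Open symbols are corrected per library for exon length and GC content, which takes the nuclear medians in dmut to 0.44, 0.23 and 0.35 while the control medians lie between -0.06 and 0.03.

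Subunit genes are short, and fold changes in these libraries went with length. Median summed exon length was 1578 bp over the 78 nuclear subunits with a value, 784 bp over the mitochondrial ones and 4270 bp over all genes. Over 14937 genes, the log2 fold change correlated with exon length at a Spearman coefficient of -0.27, and over the nuclear subunits at -0.56. This is a description across genes that share the same 6 libraries. Genes from 500 to under 1000 bp had a median log2 fold of 0.40, against 0.81 over the 18 nuclear subunits of that length. From 1000 to under 2000 bp the values were 0.21 and 0.64 (30 subunits), and from 2000 to under 5000 bp they were 0.02 and 0.39 (26 subunits). Mitochondrial subunits lay nearer to the genes of their length, with 0.42 from 500 to under 1000 bp (5 subunits) and 0.42 from 1000 to under 2000 bp (5 subunits). Under 500 bp the order turned, with 0.75 for the 1 nuclear subunit and 0.52 over 3 mitochondrial ones, against 0.91 over all genes. The 3 longest subunit genes by this measure, from 5000 to under 10000 bp, had a median of -0.08, against -0.09 over all genes of that length. Summed exon length joins all annotated exons and can exceed the length behind the deposited RPKM. Atp5l, at 6443 bp, had 216 RPKM but 124 CPM in dmut replicate 1, which points to under 1000 bp in the RPKM. This limit holds for the length classes, the correlations and the length correction.

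After a per-library correction for exon length and GC content, the nuclear median was 0.33 and the mitochondrial median 0.32, with -0.02 over all genes, and 72 of 78 nuclear folds were positive. No subunit was called in this fit (0.281% of all genes), and 51 of 91 had an unadjusted p below 0.05, against 18.8% of all genes. Atp5h had the smallest adjusted p (0.57, adjusted p = 0.0757). The medians by complex then lay between 0.26 (complex V) and 0.37 (complex I), against 0.36 to 0.66 before, and the accessory and core subunits of complex I stood at 0.41 and 0.25.

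**Figure D5:**
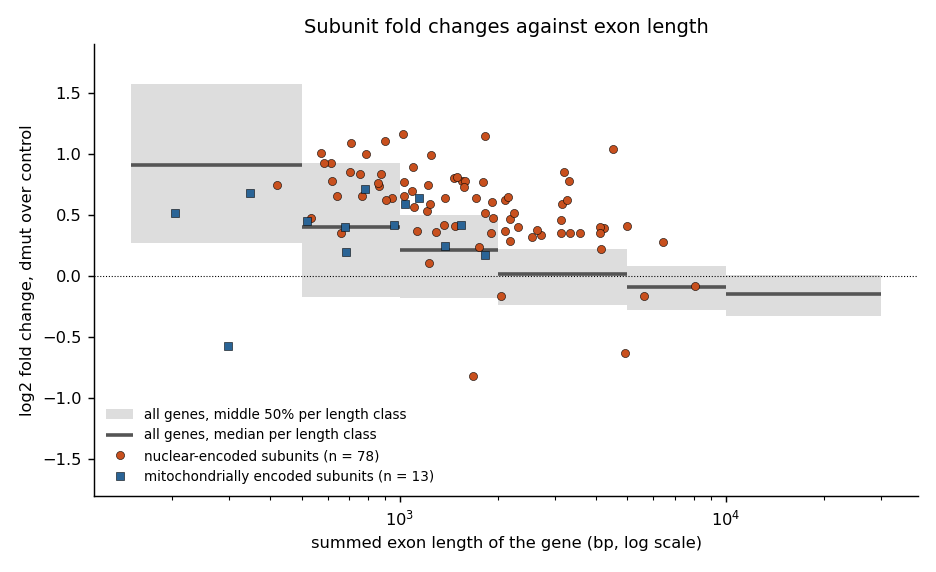
The log2 fold change (dmut over control) of each subunit is plotted against summed exon length on a log axis, over the median and middle 50% of all genes in 6 length classes, the outer 2 of which are drawn only in part. In the classes from 500 to under 5000 bp, subunits lie mostly above the median of all genes of their length, and both fall as length grows.

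Other genes of the organelle were counted from lists, none of whose members passed in edgeR. Of all genes tested, 47.3% had positive folds and 21.3% an unadjusted p below 0.05 in edgeR, and DESeq2 called 5.63% of all genes higher. Of 76 genes with mitochondrial ribosomal protein names (Mrpl and Mrps) 74 had positive folds (median 0.41, 38 with an unadjusted p below 0.05, and 17 called higher by DESeq2). Mrps36, counted here by its name alone, had 25.1 ± 4.04 CPM in dmut and 15.0 ± 1.22 CPM in control (0.75 ± 0.15, adjusted p = 0.0737). Of 29 import genes 24 were positive (median 0.34, 15 at an unadjusted p below 0.05, 9 called higher by DESeq2). Timm10b, a small import chaperone, had 12.2 ± 1.57 CPM in dmut and 5.99 ± 0.707 CPM in control (1.02 ± 0.16, 0.0576). Of 43 assembly factors 31 were positive (median 0.24, 18 and 7), with complex IV assembly factor Cox16 at 18.5 ± 4.55 CPM in dmut and 9.81 ± 0.996 CPM in control (0.92 ± 0.20, 0.0807). Subunits and electron carriers outside the name rule were positive in 8 of 11 (median 0.37, 4 and 4), led by the ATP synthase subunit Usmg5 with 37.7 ± 11.6 CPM in dmut and 17.1 ± 2.25 CPM in control (1.14 ± 0.22, 0.0737). Tricarboxylic acid cycle genes were positive in 17 of 18 (median 0.16, 8 and 4), for example malate dehydrogenase Mdh2 with 265 ± 19.1 CPM in dmut and 200 ± 9.32 CPM in control (0.41 ± 0.10, 0.0872).

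Genes that act upstream of subunit expression were not among the higher ones. Of 20 genes for mitochondrial DNA transcription and RNA handling 6 were positive (median -0.11, 1 at an unadjusted p below 0.05, none called by DESeq2), and Pnpt1, which degrades mitochondrial RNA, had 17.7 ± 1.50 CPM in dmut and 22.2 ± 1.83 CPM in control (-0.33 ± 0.12, adjusted p = 0.171). Of 12 regulators of nuclear respiratory genes 2 were positive (median -0.06, 1 and none). Gabpb2, a partner of the ETS factor GABPA, had 39.1 ± 4.64 CPM in dmut and 49.9 ± 1.94 CPM in control (-0.35 ± 0.11, 0.135). These 2 lists held long genes, with median exon lengths of 4372 and 6505 bp, and with the length and GC trend removed their medians were -0.11 and 0.00. Under the same correction the median was 0.27 for mitochondrial ribosomal protein names, 0.24 for import genes and 0.13 for assembly factors. It was 0.16 for subunits and carriers outside the name rule and 0.19 for tricarboxylic acid cycle genes.

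RefSeq promoter windows on GRCm38.p6, from 250 bases before to 50 after the start, were given for 64 of 80 nuclear subunit genes (69 windows) and were searched on both strands for sites of factors known to act on respiratory genes. The NRF1 word GCGCATGCG was in 8 windows (11.6%), against 1.8% of all 32851 windows. The ETS site CCGGAAG was in 16 (23.2%), against 8.9%. The YY1 word AAGATGGCG was in 7 (10.1%), against 1.4%, the CRE TGACGTCA in 4 (5.8%), against 1.8%, and the SP1 site GGGGCGGGG in 10 (14.5%), against 11.4%. In windows of protein-coding genes alone, the shares were 2.4% for NRF1, 11.6% for ETS, 1.8% for YY1, 2.2% for CRE and 15.4% for SP1, so that SP1 was no more common in the subunit windows. None of these words contains another. The median log2 fold change was 0.68 over genes with the NRF1 site and 0.59 over those without, and 0.64 and 0.59 for the YY1 word. It was 0.55 with the ETS site, 0.54 with the SP1 site and 0.38 with the CRE, against 0.62 without each of them.

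The windows of 3 genes are printed 5′ to 3′ on the gene's strand with motif matches in capitals, because Ndufb10 is the subunit that passed, and Cox6a1 and Atp5k, both at an adjusted p of 0.0653, hold NRF1 and ETS matches. Ndufb10 (chr17:24724374-24724673) holds none of the 5 motifs. In Cox6a1 (chr5:115348909-115349208) overlapping NRF1 matches on both strands begin 162 bases and an ETS match 16 bases before the start. In Atp5k (chr5:108434350-108434649) the NRF1 matches begin 50 bases before the start and the ETS match at base 13 of the transcript. All 3 windows lie on the minus strand, and the ETS matches read as the reverse complement.
Ndufb10: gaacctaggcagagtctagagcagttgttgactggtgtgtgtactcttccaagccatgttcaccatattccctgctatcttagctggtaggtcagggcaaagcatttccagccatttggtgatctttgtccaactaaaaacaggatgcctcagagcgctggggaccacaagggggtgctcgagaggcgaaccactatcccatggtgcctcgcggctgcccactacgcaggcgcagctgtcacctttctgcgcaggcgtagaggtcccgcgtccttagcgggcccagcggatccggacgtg
Cox6a1: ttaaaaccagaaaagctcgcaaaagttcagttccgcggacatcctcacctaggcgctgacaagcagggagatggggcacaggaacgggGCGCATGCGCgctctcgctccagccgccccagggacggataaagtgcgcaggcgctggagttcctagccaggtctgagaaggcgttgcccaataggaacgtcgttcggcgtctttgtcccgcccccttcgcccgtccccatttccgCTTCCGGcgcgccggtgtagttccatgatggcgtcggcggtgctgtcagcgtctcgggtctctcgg
Atp5k: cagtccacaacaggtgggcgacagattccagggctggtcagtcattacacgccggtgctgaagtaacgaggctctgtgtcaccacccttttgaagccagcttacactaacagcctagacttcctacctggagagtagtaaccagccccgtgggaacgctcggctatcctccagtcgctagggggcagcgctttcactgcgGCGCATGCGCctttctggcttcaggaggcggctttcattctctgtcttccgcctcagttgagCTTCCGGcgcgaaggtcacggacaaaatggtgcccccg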

How the data were processed

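Total and unique read counts per gene, RPKM values, and an EDGE test of the groups with tagwise dispersions (p-value, corrected p-value and fold change, treated as a score) were taken from the table as deposited by the authors, per the file headers. Libraries were Ion Total RNA-seq of oligo(dT)-isolated mRNA, per the labels' protocols, and the build was GRCm38 (mm10), per the submitters' processing notes. The sources used here do not name the aligner or say how multi-matched reads were placed, and the count table holds no value from 1 to 9.

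Total counts of all genes were tested with edgeR 4.0.16 (quasi-likelihood, TMM, low-count filter, Benjamini-Hochberg adjusted p of 0.05) in R 4.3.3, without covariates. Alternatives used limma 3.58.1, DESeq2 1.42.0, other scalings, filters, blocks and reads, each library left out, and a loess offset on GENCODE M21 exon length and GC content, fitted on 12271 genes. The fit was tested on simulated data. At depths of 26766556 to 34612095 reads, the spread between pools limits precision more than counting. Depth intervals would cover counting error only.

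Genes were named by rule: subunits that passed, in each complex the nuclear subunit with the highest RPKM, the 2 of smallest p and the 1 of lowest fold, all mitochondrial subunits, alternative isoforms, and the gene of smallest p per related list. The gene lists and members were chosen with earlier results of these data known. Ndufa3, Uqcrq, Ndufs1, Atp5b, Atp5d, Atp5e and the copies were added after their values were seen.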

Additional observations from a re-analysis of the deposited data

How the results depend on the processing

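Genes called over the whole table numbered 77, and 780 with library size alone, 135 over genes averaging 50 reads or more, 1783 with DESeq2, 127 with limma-voom, 49 on log2(RPKM + 1), 0 with the date as a block (2033 at an unadjusted p below 0.05 in edgeR), 42 with the length and GC trend removed, 1065 at an adjusted p of 0.1, and 2 to 585 with a library left out. Subunits called numbered 1, and 3, 5, 54, 4, 0, 0, 0, 31 and 0 to 28 in the same order, and 2 on unique reads. The replicate number as a block gave 227 genes and 13 subunits. Same-numbered libraries correlated at 0.11, 0.123 and 0.0152, and numbers 2 and 3 share a title date while number 1 does not, so the number is not read as a pairing. The nuclear minus mitochondrial difference was 0.21 under that block.

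The nuclear median of 0.60 was 0.40 with library size alone and 0.33 with the length and GC trend removed, where complexes I to V stood at 0.37, 0.33, 0.29, 0.31 and 0.26. With library size alone complexes II, III and V were at 0.23, 0.43 and 0.16, and on log2(RPKM + 1) at 0.25, 0.43 and 0.18. With a library left out, the ranges were 0.43 to 0.71 (nuclear), 0.13 to 0.64 (mitochondrial), 0.49 to 0.79, 0.34 to 0.51, 0.52 to 0.76, 0.47 to 0.78 and 0.35 to 0.44 (complexes I to V), and 0.05 to 0.42 (nuclear minus mitochondrial). All these medians stayed positive in the alternatives run.

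Of 48 subunits given with values and run under every alternative that could be fitted, 21 values changed sign. These were Sdhd (-0.09 with library size alone, -0.07 on log2(RPKM + 1), -0.18 with the length and GC trend removed), mt-Co2 (-0.01, -0.03 on log2(RPKM + 1)), mt-Nd5 (-0.05, -0.16 likewise), mt-Nd4 (-0.02 on log2(RPKM + 1)), Ndufb2 (0.04 with the date block) and Ndufs1 (0.02 with the length and GC trend removed). With copies pooled, an alternative chosen after seeing the data, Atp5g1, Atp5g2 and mt-Nd4l stood at 0.58, 0.63 and 0.07, and on unique reads Atp5g1 stood at 0.24. mt-Nd4l has too few unique reads for a value.

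Leaving out a library turned 7 of these 48 subunits at least once, mt-Co2, mt-Nd1, mt-Nd4, mt-Nd5 and mt-Nd6 without dmut replicate 1, Ndufb2 without control replicate 1 and Cox7a1 without control replicate 2, and the ranges were Ndufb2 -0.26 to 0.04, mt-Co2 -0.09 to 0.39, mt-Nd1 -0.09 to 0.62, mt-Nd4 -0.18 to 0.44, mt-Nd5 -0.39 to 0.39, mt-Nd6 -0.24 to 0.71 and Cox7a1 -0.10 to 1.03. The cause was not tested.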
